A study of Mus musculus with 12 samples.

Results

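The genes described here build, acidify and fill the lysosome: subunits and accessory proteins of the vacuolar H+-ATPase (V-ATPase), the cathepsin proteases and the lysosome-associated membrane proteins (LAMP). They were chosen by name, as every gene of the count table whose symbol starts with Atp6v, Atp6ap or Lamp and a digit, or is Cts and 1 letter, with 10 or more counts in 3 or more libraries. Of 48709 genes, 47 names fitted and 35 passed the count minimum: 9 subunits of the membrane sector V0, 10 subunits of the cytosolic sector V1, 2 accessory proteins, 2 LAMP genes and 12 cathepsins. The 12 names that failed it were Lamp3, Lamp5, Atp6ap1l, Atp6v1b1, Atp6v1e2, Atp6v1g3, Ctsg, Ctsj, Ctsm, Ctsq, Ctsr and Ctsw, and 1 pseudogene name was left out.

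RNA of pancreatic islets was sequenced in 4 groups of 3 libraries each: untreated controls (CTRL) and islets taken 1, 3 and 5 days after partial ablation of the beta cells with diphtheria toxin (DT 1, 3 and 5 DPA). All mice, the controls too, were female and NSG RIP-DTR Htz: immunodeficient NSG mice with a receptor for the toxin under the rat insulin promoter, which directs it to beta cells. NSG mice lack mature T, B and NK cells and keep macrophages. Since the controls are labelled as given no treatment, the injection and the toxin cannot be told apart, and the labels state neither the dose nor the age of the mice. The labels do not say whether the 3 libraries of a group came from 3 mice, and the spread behind each p-value may then be partly technical.

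The V-ATPase pumps protons into lysosomes, endosomes and secretory granules. V1 burns ATP at a ring of A and B subunits and turns a central stalk of D and F, which drives the ring of c subunits in V0, while E, G, C and H hold the outer ring still. Cathepsins are made as proenzymes and become active in the acid lumen that the pump maintains, and LAMP1 and LAMP2 coat the inner face of the lysosome membrane. In beta cells the same pump also acidifies the insulin granule, and macrophages are the islet cells known for the highest cathepsin content.

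Many lysosomal genes carry in their promoters the motif GTCACGTG, the core of the element that transcription factors of the TFEB and TFE3 family bind. RefSeq promoter windows (GRCm38.p6, 250 bases before to 50 after a start) were matched for 26 of the 35 genes. On either strand GTCACGTG stood in 5 of the 26 (19.2%), against 2.55% of 27025 genes with a window and 4.16% of the 12606 of these that were tested for expression. The shorter CACGTG, which lies inside it, stood in 9 of the 26 (34.6%), against 8.09% and 10.9% of the same genes. The 5 genes were Atp6v0b, Atp6v0d1, Lamp1, Ctsa and Ctsd, and they are shown because they changed in both directions at 1 DPA. The promoter excerpts run from 110 bases before the start to 14 after it, 5′ to 3′ on the strand of the gene, at chr4:117887316-117887439 (minus strand) for Atp6v0b, chr8:105566051-105566174 (minus strand) for Atp6v0d1 and chr8:13159051-13159174 (plus strand) for Lamp1. For Ctsa, chr2:164833748-164833777 (plus strand, ahead of a start that lies inside the gene as annotated), and for Ctsd, chr7:142387907-142387936 (minus strand), 30 bases around 1 of 2 sites are given. Capitals mark CACGTG and, where the flanking bases complete it, GTCACGTG or its reverse complement CACGTGAC.
Atp6v0b: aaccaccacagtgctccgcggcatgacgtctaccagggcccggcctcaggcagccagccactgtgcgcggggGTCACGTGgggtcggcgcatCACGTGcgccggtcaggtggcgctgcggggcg
Atp6v0d1: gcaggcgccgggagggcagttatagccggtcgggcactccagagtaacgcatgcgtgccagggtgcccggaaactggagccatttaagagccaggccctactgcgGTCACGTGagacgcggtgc
Lamp1: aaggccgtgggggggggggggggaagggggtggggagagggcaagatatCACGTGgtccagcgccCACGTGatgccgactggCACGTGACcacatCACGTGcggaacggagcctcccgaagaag
Ctsa: atgagcaaactGTCACGTGatgcagatgct
Ctsd: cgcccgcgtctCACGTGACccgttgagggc
The 8 letters begin 38 bases before the start in Atp6v0b, 5 in Atp6v0d1, 28 in Lamp1, 14 in Ctsa and 98 in Ctsd, and Lamp1 holds 4 copies of CACGTG within 61 bases of its start. A match of letters is a description of the window and not a bound site. Atp6v0a2, Atp6v0d2, Atp6v1b2, Atp6v1c1, Atp6v1g1, Atp6v1h, Ctsb, Ctse and Ctsh had no entry.

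The libraries held 29867083 to 50012558 counts, and 17294 genes were tested, all 35 members among them. Levels are given as per-million counts after scaling between libraries (CPM). The labelled tissue was checked against its markers: 10 beta cell markers, the insulin genes among them, summed to 106774 to 207912 CPM in every library, and all 5 alpha cell markers were detected. Summed acinar markers ranged from 5524 to 83012 CPM over the 12 libraries and from 12918 to 83012 CPM within CTRL. CTRL replicate 3 stood apart from the other controls in markers of some cells other than islet endocrine cells. The 14 macrophage markers summed to 152 CPM there, against 623 and 409 CPM in CTRL replicates 1 and 2. The 10 stellate cell, fibroblast and pericyte markers summed to 784 CPM, against 2275 and 1837 CPM. Duct markers (438 CPM, against 469 and 461 CPM) and endothelial markers (555 CPM, against 671 and 600 CPM) differed less. In bulk RNA, fewer cells of a type and less RNA per cell cannot be told apart.

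Per length, in the deposited TPM values (per-million transcript levels), the most abundant members in CTRL were Lamp1 at 448 ± 32.1 TPM and Ctsd at 366 ± 99.1 TPM (SD, n = 3). They were followed by Atp6ap1 at 188 ± 12.2, Atp6ap2 at 176 ± 11.9, Ctsb at 170.2 ± 45.6 and Atp6v0b at 169 ± 14.9 TPM, neighbours in this order whose values lay within 1 SD of each other. Among the V-ATPase subunits of CTRL islets, Atp6v0b (c″), Atp6v1g1 (G), Atp6v0d1 (d), Atp6v1f (F) and Atp6v0c (c) held 127 to 169 TPM. Atp6v1h (H) was far lower at 18.8 ± 1.12 TPM. The alternative subunits Atp6v0a4, Atp6v0d2 and Atp6v1c2 were each under 0.2 TPM.

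**Figure D1:**
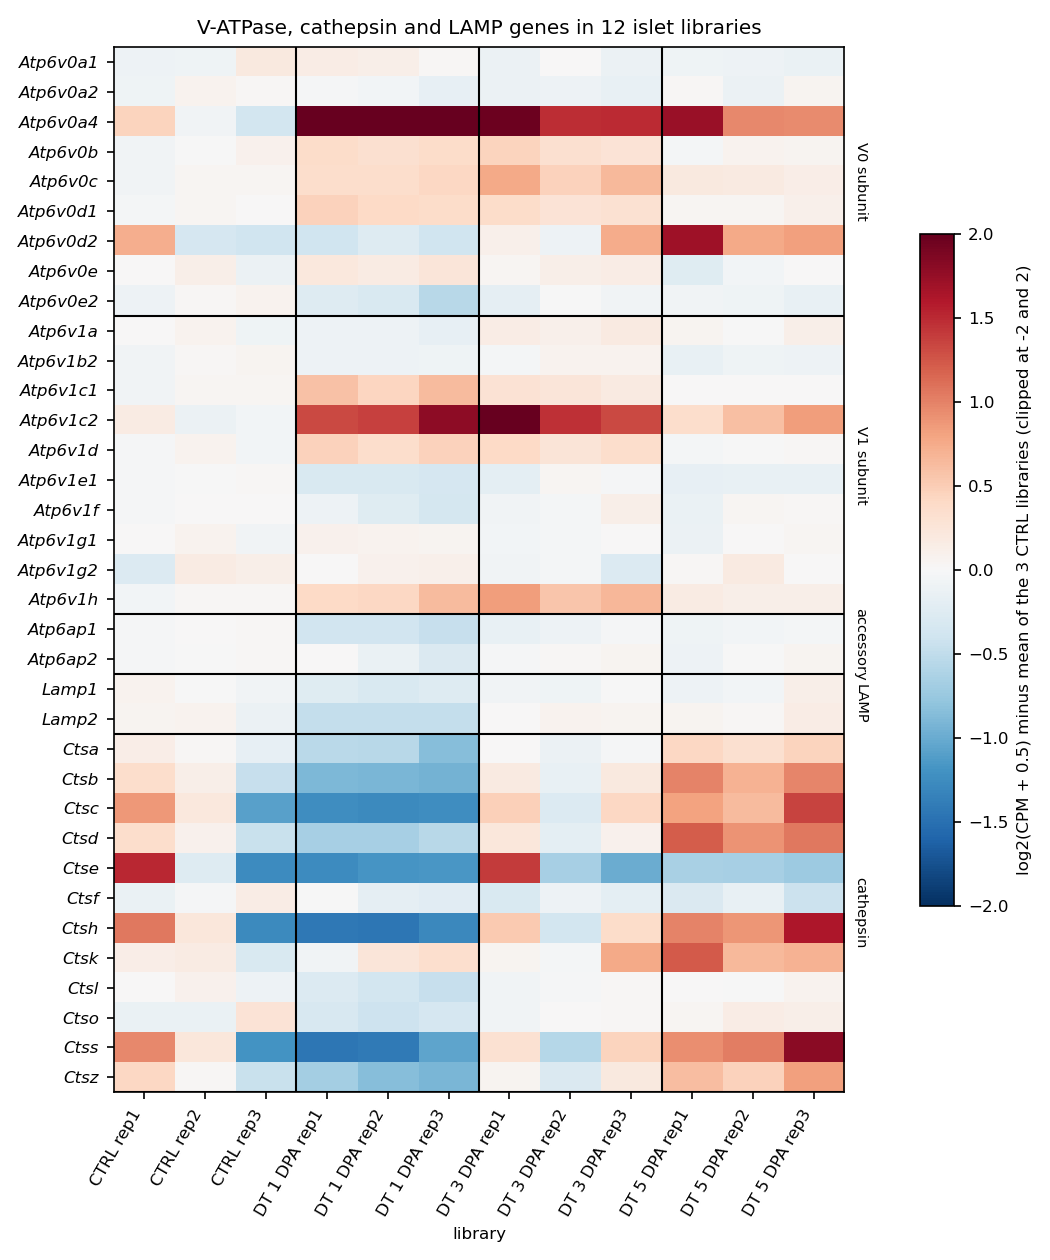
Level of the 35 genes in each of the 12 libraries (columns) as log2(CPM + 0.5) minus the mean of the 3 CTRL libraries, with red higher and blue lower and colours clipped at -2 and 2. Several V0 and V1 subunits are red at 1 and 3 DPA, while most cathepsins are blue at 1 DPA and red at 5 DPA, and CTRL replicate 3 is blue for Ctsc, Ctsh and Ctss.

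At 1 DPA a part of the pump moved apart from the proteases: 9 of 21 V-ATPase genes rose and 4 fell, while 10 of 12 cathepsins and both LAMP genes fell and none of these 14 rose. Atp6v0a4 and Atp6v1c2 among the 9, and Ctse among the 10, were of very low count, and the count minimum in part fixed their differences. Over the 35 genes, 9 rose and 16 fell at an adjusted p under 0.05 (edgeR quasi-likelihood test, Benjamini-Hochberg over all genes tested), beside a background of 29.2% of all genes higher and 22.4% lower. That balance depended on the scaling. All genes split into 5045 higher and 3871 lower, against 4221 higher and 5498 lower with library sizes taken without the 50 most abundant genes. On that scale 8 of the 35 genes were higher and 21 lower. Falls of Atp6ap2, Atp6v0a2, Atp6v1a, Atp6v1b2 and Ctsf were called in addition, and the call of Atp6v0e was lost. The median log2 fold change was -0.76 over the cathepsins and 0.07 over the V-ATPase genes, against -0.05 over all genes. The summed V0 subunits stood at 1059, 1033 and 1024 CPM at 1 DPA, against 852, 902 and 943 CPM in CTRL. The summed cathepsins stood at 822, 797 and 792 CPM at 1 DPA, against 1615, 1368 and 1010 CPM in CTRL. Neither pair of groups overlapped. The summed V1 subunits did overlap CTRL, at 928, 907 and 939 CPM against 866, 911 and 894 CPM. The summed accessory genes lay below it, at 414, 398 and 366 CPM against 468, 475 and 486 CPM. All V-ATPase genes together were little above CTRL, at 2402, 2337 and 2329 CPM against 2186, 2289 and 2323 CPM.

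In V0, the proteolipids that form the rotating ring rose. Atp6v0c, the c subunit (mm10 chr17:24163866-24169702), had 189, 204 and 205 CPM in CTRL, 255, 254 and 265 CPM at 1 DPA, 339, 276 and 311 CPM at 3 DPA, and 229, 225 and 219 CPM at 5 DPA. All 9 toxin libraries were above all 3 controls, and the difference passed the test at 1 DPA (log2 fold change 0.37 ± 0.07 SE, edgeR adjusted p = 0.00107) and at 3 DPA (0.63 ± 0.07, edgeR adjusted p = 0.000128) but not at 5 DPA (0.17 ± 0.07, edgeR adjusted p = 0.163). Atp6v0b, the c″ subunit, had 152, 159.6 and 169 CPM in CTRL, 207, 199 and 206 CPM at 1 DPA, 218, 199 and 194 CPM at 3 DPA, and 156, 168 and 166 CPM at 5 DPA. It was higher at 1 and 3 DPA by 0.35 each time (± 0.06, edgeR adjusted p = 0.000562 and 0.00251), and the 5 DPA libraries lay among the controls.

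Atp6v0d1, the d subunit that couples the ring to the central stalk, followed the same course. It had 110.2, 116 and 114 CPM in CTRL, 156, 150.2 and 146 CPM at 1 DPA, 147, 137 and 141 CPM at 3 DPA, and 117, 116 and 122 CPM at 5 DPA. The libraries of 1 and 3 DPA lay above every control, by 0.41 ± 0.05 (edgeR adjusted p = 3.68e-05) and 0.32 ± 0.05 (edgeR adjusted p = 0.00117). Atp6v0a1, the main a subunit, which carries the proton path, had 183, 183 and 224 CPM in CTRL, 216, 211 and 199 CPM at 1 DPA, 181, 198 and 181 CPM at 3 DPA, and 184, 182 and 178 CPM at 5 DPA. Its groups overlapped at each time and no difference from CTRL passed the test (edgeR adjusted p = 0.379 at 1 DPA).

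In V1, the rises were in the C, D and H subunits and not in the catalytic head. Atp6v1c1, the C subunit, which bridges V1 and V0 and leaves when the pump comes apart, had 77.9, 84.3 and 84.9 CPM in CTRL, 123, 111 and 127 CPM at 1 DPA, 100.4, 97.1 and 92.9 CPM at 3 DPA, and 82.4, 82.7 and 83.2 CPM at 5 DPA. Every library of 1 and 3 DPA was above every control, and the rise was 0.55 ± 0.06 at 1 DPA (1.46-fold, edgeR adjusted p = 1.87e-05) and 0.23 ± 0.06 at 3 DPA (edgeR adjusted p = 0.0274). Atp6v1h, the H subunit, which regulates ATP hydrolysis (chr1:5070018-5162529), had 81.7, 85.9 and 86.5 CPM in CTRL, 112, 112 and 132 CPM at 1 DPA, 152, 125 and 135 CPM at 3 DPA, and 95.2, 92.3 and 91.7 CPM at 5 DPA. It was above every control at all 3 times, and the difference passed the test at 1 DPA (0.49 ± 0.08, edgeR adjusted p = 0.000343) and at 3 DPA (0.70 ± 0.08, 1.62-fold, edgeR adjusted p = 0.000138). Atp6v1d, the D subunit of the central stalk, had 49.1, 52.7 and 48.2 CPM in CTRL, 68.7, 63.7 and 69.0 CPM at 1 DPA, 66.2, 59.6 and 63.7 CPM at 3 DPA, and 48.8, 49.8 and 50.8 CPM at 5 DPA. The first 2 times lay wholly above CTRL, by 0.43 ± 0.06 (edgeR adjusted p = 9.81e-05) and 0.34 ± 0.06 (edgeR adjusted p = 0.00239).

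The A and B subunits of the head, where ATP is hydrolysed, gave no call against CTRL apart from falls at 1 DPA on the scale without the 50 most abundant genes (-0.25 for Atp6v1a and -0.22 for Atp6v1b2). Atp6v1a had 123, 128 and 115 CPM in CTRL, 114, 114 and 109 CPM at 1 DPA, 136, 131 and 138 CPM at 3 DPA, and 126, 121 and 132 CPM at 5 DPA. Atp6v1b2 had 267, 284 and 289.7 CPM in CTRL, 261, 261 and 264 CPM at 1 DPA, 274, 295 and 294 CPM at 3 DPA, and 253, 264 and 261 CPM at 5 DPA. Both were slightly below every control at 1 DPA without passing the test (edgeR adjusted p = 0.0905 and 0.136). Of the outer stalks, Atp6v1g1 (G) had 84.2, 88.3 and 80.2 CPM in CTRL and 77.6 to 89.5 CPM after the toxin, with overlapping groups and no call. Atp6v1e1 (E) had 113, 115 and 117 CPM in CTRL, 93.1, 93.8 and 91.4 CPM at 1 DPA, 101, 118 and 113 CPM at 3 DPA, and 103, 104 and 104 CPM at 5 DPA. It fell by 0.31 ± 0.06 at 1 DPA (edgeR adjusted p = 0.000842), where its libraries were below every control, while at 5 DPA they were below every control without passing the test (-0.16 ± 0.06, edgeR adjusted p = 0.122).

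Of the accessory proteins, Atp6ap1 (Ac45), which guides assembly of the pump, had 257, 263 and 268 CPM in CTRL, 201, 202 and 192 CPM at 1 DPA, 236, 244 and 259.8 CPM at 3 DPA, and 249, 254 and 255 CPM at 5 DPA. It fell by 0.41 ± 0.05 at 1 DPA, below every control (edgeR adjusted p = 4.9e-05), and gave no call later. Atp6ap2, the prorenin receptor, had 210.1, 212 and 217 CPM in CTRL, 214, 195 and 174 CPM at 1 DPA, 211, 217 and 222 CPM at 3 DPA, and 199, 212 and 220.1 CPM at 5 DPA. Its groups overlapped at each time and gave no call, apart from a fall at 1 DPA on the scale without the 50 most abundant genes (-0.26). The remaining calls among pump genes at 1 DPA were small falls of Atp6v0e2 (-0.37 ± 0.08) and Atp6v1f (-0.23 ± 0.08) and a rise of Atp6v0e (0.20 ± 0.08, edgeR adjusted p = 0.0432). The call of Atp6v0e ended in 14 of 22 alternative settings, among them those that dropped any library of CTRL, 1 DPA or 3 DPA or replicate 2 of 5 DPA, and that of Atp6v1f without replicate 2 of 1 DPA.

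**Figure D2:**
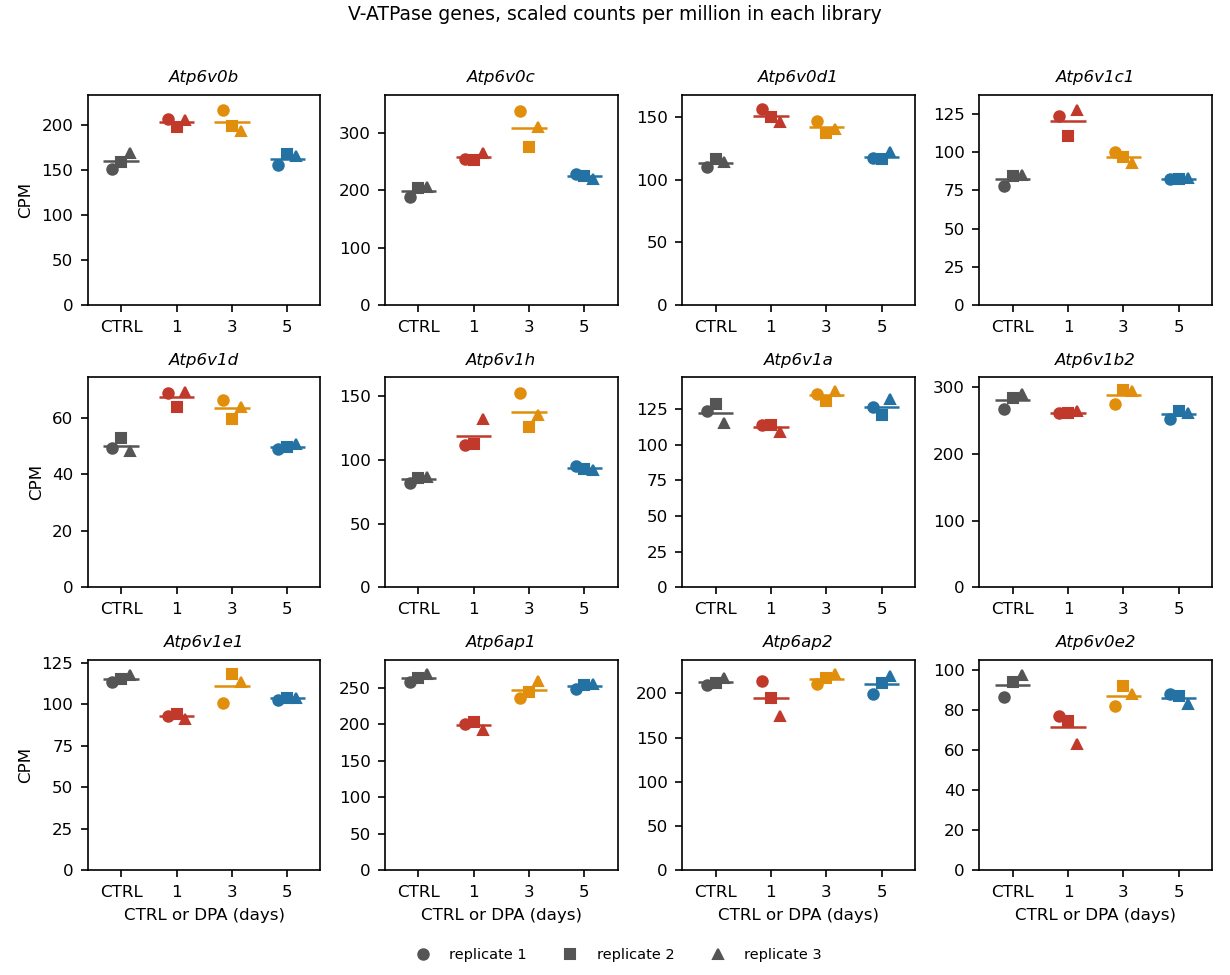
Level in CPM of 12 V-ATPase genes in each library, by group from CTRL to 5 DPA, with symbols for the replicate numbers and a line at the mean of each group. Atp6v0b, Atp6v0c, Atp6v0d1, Atp6v1c1, Atp6v1d and Atp6v1h lie above CTRL at 1 and 3 DPA, while Atp6v1e1, Atp6ap1 and Atp6v0e2 lie below it at 1 DPA.

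Among the proteases at 1 DPA, the abundant cathepsins fell. Ctsb, a cysteine protease (chr14:63122462-63145923), had 463, 394 and 264 CPM in CTRL, 196, 193 and 189 CPM at 1 DPA, 413, 329 and 417 CPM at 3 DPA, and 727, 587 and 719 CPM at 5 DPA. Ctsd, the main aspartic protease of lysosomes (chr7:142375911-142388038), had 498, 414 and 284 CPM in CTRL, 244, 246 and 263 CPM at 1 DPA, 454, 340.3 and 413 CPM at 3 DPA, and 901, 725 and 807 CPM at 5 DPA. For both genes each 1 DPA library was below every control and each 5 DPA library above, and 3 DPA lay among the controls. At 1 DPA, Ctsb fell by 0.96 ± 0.18 (edgeR adjusted p = 0.00093) and Ctsd by 0.67 ± 0.18 (edgeR adjusted p = 0.00862). Ctsa, the carboxypeptidase that protects neuraminidase and beta-galactosidase, had 138, 128 and 111 CPM in CTRL, 86.1, 84.8 and 69.4 CPM at 1 DPA, 125, 115 and 123 CPM at 3 DPA, and 168, 157 and 171 CPM at 5 DPA. It followed the same order, with a fall of 0.65 ± 0.09 at 1 DPA (edgeR adjusted p = 0.000122).

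A further 4 cathepsins fell at 1 DPA with a wide spread among the controls. Ctss, which trims the invariant chain in antigen-presenting cells, had 82.6, 49.7 and 18.1 CPM in CTRL, 15.2, 15.6 and 20.0 CPM at 1 DPA, 52.3, 28.2 and 57.9 CPM at 3 DPA, and 80.6, 86.5 and 149 CPM at 5 DPA. Its 1 DPA libraries overlapped CTRL only through CTRL replicate 3. Ctsh, an aminopeptidase, had 41.6, 23.2 and 7.85 CPM in CTRL, 7.05, 6.94 and 7.83 CPM at 1 DPA, 28.8, 15.3 and 25.7 CPM at 3 DPA, and 39.9, 36.8 and 61.4 CPM at 5 DPA. Ctsc, which activates the serine proteases of granules, had 35.1, 22.2 and 8.74 CPM in CTRL, 7.74, 7.55 and 7.8 CPM at 1 DPA, 26.8, 15.7 and 25.6 CPM at 3 DPA, and 33.6, 29.7 and 49.2 CPM at 5 DPA. Their 1 DPA levels were just below CTRL replicate 3 and far below the other controls. Ctsz, a carboxypeptidase, had 121, 92.9 and 66.7 CPM in CTRL, 56.5, 50.4 and 47.9 CPM at 1 DPA, 94.95, 74.2 and 104 CPM at 3 DPA, and 140.3, 125 and 160.2 CPM at 5 DPA. At 1 DPA the log2 fold changes were -1.73 ± 0.52 for Ctsh, -1.56 ± 0.52 for Ctss, -1.51 ± 0.44 for Ctsc and -0.86 ± 0.20 for Ctsz (edgeR adjusted p = 0.0202, 0.0318, 0.0173 and 0.0045). The calls of Ctsc and Ctsh ended in limma-voom and when CTRL replicate 1 or replicate 1 or 2 of 1 DPA was dropped. That of Ctss ended in limma-voom and when CTRL replicate 1 or 2 or any 1 DPA library was dropped. Those of Ctsh and Ctss also ended when only CTRL and 1 DPA entered the fit and beside the acinar score.

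Other cathepsins had smaller differences. Ctsl, a broad cysteine protease, had 131, 139 and 122 CPM in CTRL, 108, 101 and 94.6 CPM at 1 DPA, 124, 128 and 132 CPM at 3 DPA, and 131, 129 and 136 CPM at 5 DPA. It fell at 1 DPA by 0.37 ± 0.06, below every control (edgeR adjusted p = 0.000525), and gave no call later. Ctso also fell by 0.37 at 1 DPA (± 0.10, edgeR adjusted p = 0.00817). Ctsf (-0.14 ± 0.09) and Ctsk (0.21 ± 0.31), the collagen-degrading cathepsin of osteoclasts, gave no call at 1 DPA. Lamp1 had 579.7, 552 and 528 CPM in CTRL, 466, 447 and 460.2 CPM at 1 DPA, 524, 522 and 549 CPM at 3 DPA, and 513, 531 and 599 CPM at 5 DPA. Lamp2, whose 2A isoform serves chaperone-mediated autophagy, had 202, 203 and 179.7 CPM in CTRL, 139.8, 139.8 and 139 CPM at 1 DPA, 197, 203 and 202 CPM at 3 DPA, and 201, 197 and 215 CPM at 5 DPA. Both were below every control at 1 DPA, by 0.27 ± 0.07 for Lamp1 (edgeR adjusted p = 0.00574) and 0.48 ± 0.06 for Lamp2 (edgeR adjusted p = 3.48e-05), and overlapped CTRL at 3 and 5 DPA.

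Macrophage markers moved with several of the cathepsins. Of 14 markers, 13 fell at 1 DPA, none gave a call at 3 DPA and 2 rose at 5 DPA, and none was at 0 in all libraries. Of all genes, 22.4% were lower at 1 DPA and 5.87% higher at 5 DPA. Their summed level was 152 to 623 CPM in CTRL, 112 to 135 CPM at 1 DPA, 241 to 415 CPM at 3 DPA and 673 to 936 CPM at 5 DPA. Within CTRL alone, replicate 1 exceeded replicate 3 by 5.3-fold for Ctsh, 4.55-fold for Ctss, 4.02-fold for Ctsc, 1.82-fold for Ctsz and 1.75-fold for both Ctsb and Ctsd. The ratio was 1.5 for Ctsk, 1.24 for Ctsa, 1.08 for Ctsl, 1.099 for Lamp1 and 0.97 for Atp6v0d1. For Ctsf (0.82) and Ctso (0.75) it went the other way from the macrophage markers. When a macrophage score entered the fit as a covariate, the 1 DPA differences of Ctsc, Ctsh, Ctss and Ctse were 0.075, 0.18, 0.25 and 1.27 and no longer passed the test, the calls of Ctsd, Ctsz, Lamp1 and Atp6v1f also ended, and those of Ctsa (-0.47), Ctsb (-0.38), Ctsl (-0.29) and Lamp2 (-0.37) held. All 9 rises of V-ATPase genes at 1 DPA held in that fit. Over all genes it called 6803 at 1 DPA, in place of 8916. The score itself differed between the groups, at 2.35 to 2.64 at 1 DPA and 2.65 to 4.65 in CTRL. That fit therefore cannot separate macrophage content from the time after the toxin. Markers of some other cells fell at 1 DPA as well, 8 of 10 for beta cells, 5 of 7 for endothelial cells and 3 of 7 for ducts. So did 2 of 4 tested neutrophil and monocyte markers and 1 of 3 tested lymphocyte markers. None of 14 acinar, 5 alpha cell and 3 delta and PP cell markers was called lower. The summed beta cell markers were 106774 to 163598 CPM at 1 DPA, against 183834 to 204548 CPM in CTRL. The stellate cell, fibroblast and pericyte markers moved alike, with 3 of 10 falling at 1 DPA and 2 of 10 rising at 5 DPA and summed levels of 784 to 2275 CPM in CTRL, 813 to 949.5 CPM at 1 DPA and 3251 to 5264 CPM at 5 DPA, and the part of these cells in the results was not tested.

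**Figure D3:**
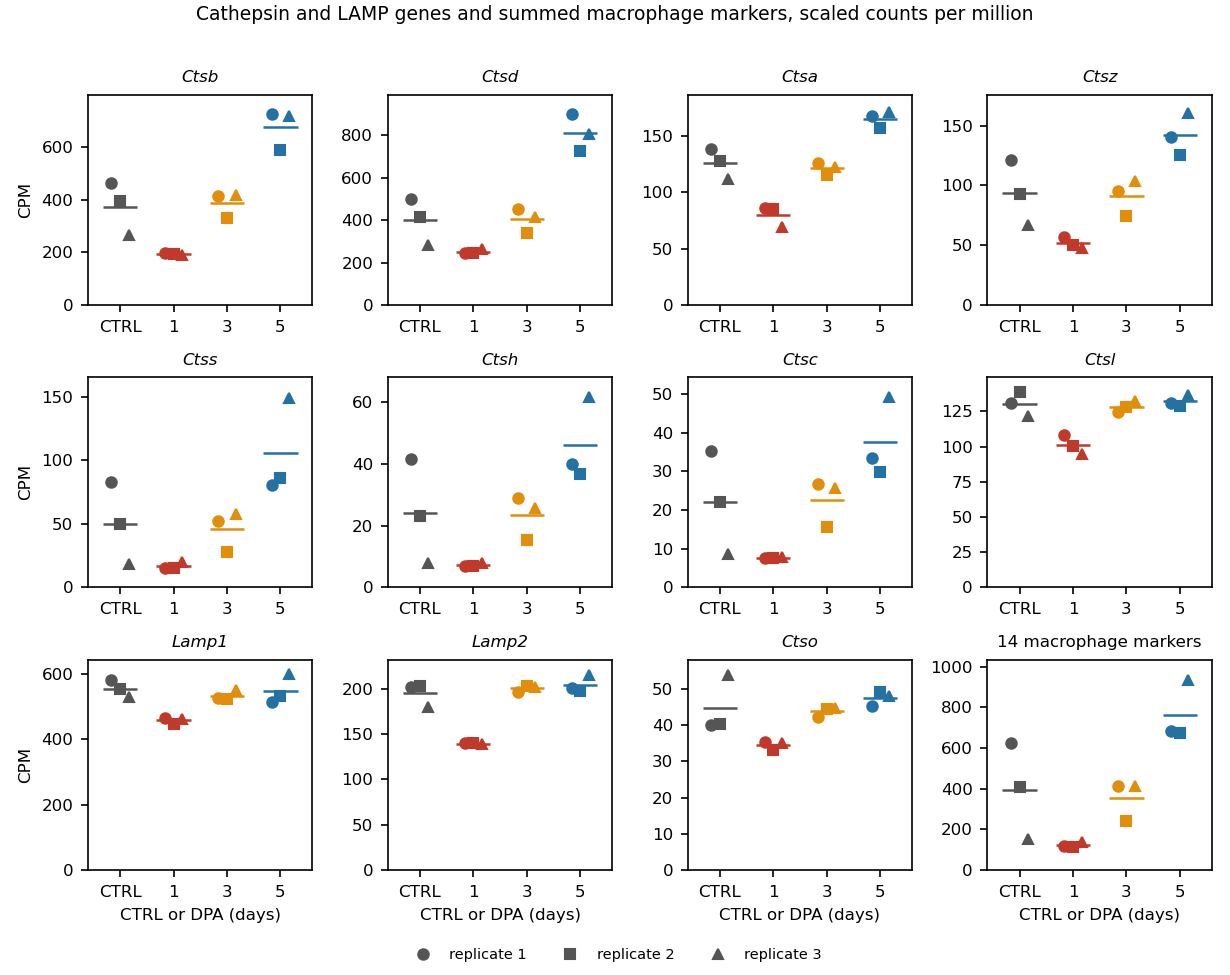
Level in CPM of 9 cathepsins and both LAMP genes in each library, and the sum of 14 macrophage markers, by group from CTRL to 5 DPA, with symbols for the replicate numbers and a line at the mean of each group. Ctss, Ctsh and Ctsc show the order of the macrophage markers, CTRL replicate 3 included, while Ctsl, Lamp1 and Lamp2 dip at 1 DPA with little spread between controls.

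At 3 DPA pump subunits were again higher than in CTRL, and no cathepsin or LAMP gene gave a call. Of the 35 genes, 8 were higher and 0 lower than in CTRL, beside 10.2% and 2.37% of all genes. At an unadjusted p under 0.05, 1 gene was lower (Ctsf, named after its value was seen), and DESeq2 and limma-voom called 0 lower. The 8 were Atp6v0a4, Atp6v0b, Atp6v0c, Atp6v0d1, Atp6v1c1, Atp6v1c2, Atp6v1d and Atp6v1h, all of which had also risen at 1 DPA. Over the 12 cathepsins the median log2 fold change was -0.04, and the largest difference in size was that of Ctsk (0.37 ± 0.31), which gave no call. The call of Atp6v1c1 ended when any of the replicates 1 and 2 of CTRL or of 3 DPA was left out and with an acinar score in the fit, and it ended, as did that of Atp6v0a4, when only CTRL and 3 DPA entered the fit. The other calls held without any single library, and all 8 held beside the macrophage score.

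At 5 DPA 3 of 12 cathepsins rose, and of the 21 pump genes only 2 isoforms of very low count did. Of the 35 genes, 5 were higher than in CTRL, Ctsd, Ctsb, Ctsa, Atp6v0a4 and Atp6v1c2, and 0 were lower, beside 5.87% and 2.67% of all genes (1016 higher and 461 lower, and 1095 and 289 on the scale without the 50 most abundant genes). At an unadjusted p under 0.05, 2 genes were lower (Atp6v1e1 and Ctsf), limma-voom called 0 and DESeq2 called 1, Ctsf. Ctsd rose by 1.02 ± 0.18 (2.03-fold, edgeR adjusted p = 0.00775), Ctsb by 0.86 ± 0.18 (1.81-fold, edgeR adjusted p = 0.0156) and Ctsa by 0.39 ± 0.09 (1.31-fold, edgeR adjusted p = 0.0251). Ctsz (0.60 ± 0.20), Ctsc (0.77 ± 0.42), Ctsh (0.93 ± 0.49), Ctsk (1.05 ± 0.31) and Ctss (1.07 ± 0.50) had positive differences that did not pass the test. The 5 calls depended on few libraries: 1 call was left when CTRL replicate 2 or 5 DPA replicate 1 was dropped, 2 when CTRL replicate 3 was, and 3 when 5 DPA replicate 3 was. The calls over all genes fell as well in these fits, from 1477 to 726, 462, 745 and 823, in that order. None of the 5 was left when only CTRL and 5 DPA entered the fit, and beside the macrophage score Ctsd alone was called (0.63, edgeR adjusted p = 0.026). Over all genes, 622 and 213 calls were left in these 2 fits.

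**Figure D4:**
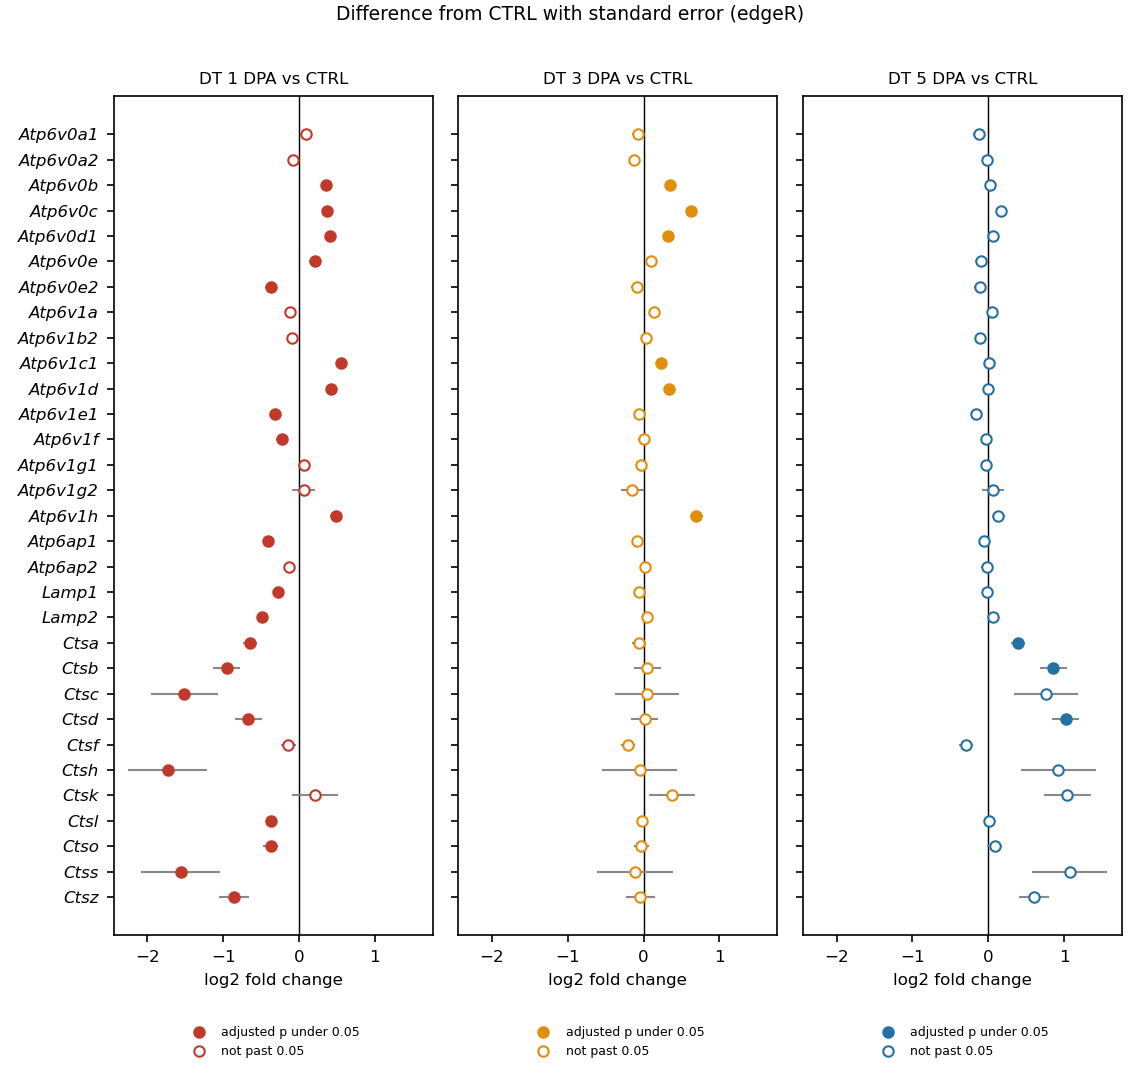
Log2 fold change against CTRL with its standard error (bars, smaller than the symbol for most V-ATPase genes) at 1, 3 and 5 DPA for 31 genes, without the 4 of very low count, with filled symbols where the edgeR adjusted p is under 0.05. V-ATPase rises stand at 1 and 3 DPA, cathepsin falls at 1 DPA, and rises of Ctsa, Ctsb and Ctsd at 5 DPA.

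Comparing the times with each other, 19 of the 35 genes were higher and 2 lower at 3 DPA than at 1 DPA, beside 20.4% and 24.7% of all genes. All genes split into 3534 higher and 4271 lower. On the scale without the 50 most abundant genes they split into 4927 and 3316, and 21 members were higher and 1 lower. The 19 held 10 of 12 cathepsins and both LAMP genes, with Ctsb up by 1.00 ± 0.18, and also the pump genes Atp6ap1, Atp6v0c, Atp6v0e2, Atp6v1a, Atp6v1e1, Atp6v1f and Atp6v1h. Ctse, of very low count, was among the 10. When 1 DPA replicate 2 was dropped the 19 became 11, and beside the macrophage score they became 7. Over all genes the rises became 2828 and 1816 in these fits, in place of 3534. Atp6v1c1 (-0.32 ± 0.06) and Atp6v0a4 (-1.45 ± 0.52) were the 2 lower genes, and the call of Atp6v0a4 ended when any library of the 2 times, CTRL replicate 2 or 5 DPA replicate 2 was dropped.

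Between 3 and 5 DPA, 5 pump subunits fell and 3 cathepsins rose. At 5 DPA 5 genes were lower than at 3 DPA, Atp6v0b (-0.32), Atp6v0c (-0.46), Atp6v0d1 (-0.26), Atp6v1d (-0.34) and Atp6v1h (-0.56), and 3 were higher, Ctsa (0.45), Ctsb (0.81) and Ctsd (1.01), beside 2.46% lower and 0.705% higher of all genes. None of the 5 DPA libraries overlapped those of 3 DPA in these 8 genes. Their calls from the same values make that likely, so it is a description and no further evidence. No rise was called once any 1 of the 6 libraries of the 2 times was left out. The 5 falls became 0 when 3 DPA replicate 1 or 5 DPA replicate 2 was dropped, 1 when 5 DPA replicate 1 or 3 was, and 3 when 3 DPA replicate 3 was. The calls over all genes fell as well in these fits, from 547 to 48, 31, 33, 70 and 186, in that order.

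The widest contrast was between 5 and 1 DPA, with 18 genes higher and 10 lower, beside 26.3% and 29.8% of all genes. All genes split into 4551 higher and 5152 lower. Without the 50 most abundant genes in the scaling they split into 6111 and 3933, and 21 members were higher and 6 lower. The 18 held 10 cathepsins and both LAMP genes, and the 10 lower genes were all V-ATPase subunits. Of very low count were Atp6v0d2 among the 18 and Atp6v0a4 and Atp6v1c2 among the 10 lower genes. Ctsd was 3.23-fold higher at 5 DPA (1.69 ± 0.18, edgeR adjusted p = 2.14e-05), Ctsb 3.52-fold (1.81 ± 0.18, edgeR adjusted p = 1.3e-05) and Ctss 6.22-fold (2.64 ± 0.53, edgeR adjusted p = 0.00261). Atp6v1c1 fell by 0.54 ± 0.06 (edgeR adjusted p = 2.39e-05) and Atp6v1d by 0.43 ± 0.06 (edgeR adjusted p = 9.26e-05). Beside the macrophage score, 7 of the genes were higher and 5 lower, with 1075 and 2063 of all genes in place of 4551 and 5152. In a single test over the 4 groups, 26 of the 35 genes differed, beside 57.4% of all genes.

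Isoforms of very low count showed the largest ratios. Atp6v0a4, the a4 subunit of kidney intercalated cells, had 16, 6 and 1 counts in CTRL, 137, 143 and 189 counts at 1 DPA, 101, 49 and 68 counts at 3 DPA, and 91, 41 and 29 counts at 5 DPA. Every toxin library exceeded every control, and the summed counts at 1 DPA were 24.1-fold those of CTRL after scaling (95% interval 15.9 to 38.5, covering counting error only). Atp6v1c2, the tissue-restricted C2 subunit, had 4, 0 and 1 counts in CTRL, 31, 34 and 43 counts at 1 DPA, 89, 35 and 41 counts at 3 DPA, and 10, 16 and 17 counts at 5 DPA, a ratio of 25.6 at 1 DPA (10.6 to 80.4). Both passed the count minimum mainly through the toxin libraries, so that a difference was in part fixed by the rule: without them, 7, 6 and 3 genes were higher at 1, 3 and 5 DPA. Atp6v0a4 overlaps D630045J12Rik on the same strand, which held 14858 counts and did not change at 1 DPA (0.00 ± 0.11), and Atp6v1c2 overlaps Pdia6 on the opposite strand, which held 204755 counts and fell by 1.14 at 1 DPA. No source used here says whether counting used strand, so that reads of Atp6v1c2 and Pdia6, and in shared exons those of Atp6v0a4 and its neighbour, cannot be told apart. The same holds on the opposite strand for Ctsa and Pltp, which held 18953 counts and gave no call (-0.75 ± 0.38 at 1 DPA and 1.13 ± 0.37 at 5 DPA), and for Atp6v1g2 and Nfkbil1. Lamp1, Ctsb, Ctsz and Atp6v1b2 overlap Grtp1, Fdft1, Nelfcd and Slc18a1, each with fewer counts than the member itself.

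Ctse, an aspartic protease of endosomes, had 112, 21 and 0 counts in CTRL, 0, 1 and 1 counts at 1 DPA, 125, 9 and 5 counts at 3 DPA, and 14, 13 and 8 counts at 5 DPA. One library each of CTRL and 3 DPA held most of its counts, and the call at 1 DPA (56.2-fold lower by summed counts, 15.2 to 469 by counting error) ended in limma-voom and when CTRL replicate 1 or any library of 1 or 5 DPA was dropped. Atp6v0d2, the d2 subunit of osteoclasts and some macrophages, had 23, 1 and 0 counts in CTRL, 0, 2 and 0 at 1 DPA, 10, 4 and 29 at 3 DPA, and 86, 31 and 24 at 5 DPA, above every control at 5 DPA without passing the test there (edgeR adjusted p = 0.233) and higher than at 1 DPA (edgeR adjusted p = 0.0103). Neither Ctse nor Atp6v0d2 reached 10 counts in any 1 DPA library. Both passed the count minimum through other groups, so that their differences from 1 DPA were in part fixed by the rule. The osteoclast-type macrophage genes Acp5, Ocstamp, Dcstamp and Mmp9 together had 4.37 to 24.0 CPM in CTRL, 4.85 to 5.64 CPM at 1 DPA, 13.6 to 22.0 CPM at 3 DPA and 34.5 to 55.1 CPM at 5 DPA, and their part in the level of Atp6v0d2 was not tested.

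Where a subunit has several genes, the share of each in the subunit's summed TPM was compared by a 2-sided exact permutation test, in which 3 against 3 libraries cannot give p below 0.1. Among the a subunits, Atp6v0a1 held 57.5, 59.8 and 65.7% in CTRL, 65.0, 65.3 and 63.5% at 1 DPA, 58.0, 62.7 and 62.1% at 3 DPA, and 52.8, 55.2 and 51.2% at 5 DPA. The 5 DPA libraries were all below CTRL (exact p = 0.1), while those of Tcirg1, the a3 subunit of osteoclasts and macrophages, were all above it with 24.4 ± 1.38% at 5 DPA and 15.1 ± 4.25% in CTRL (SD, n = 3, exact p = 0.1). Tcirg1, named otherwise and so not among the 35 genes, was also called higher at 5 DPA (0.78 ± 0.17, edgeR adjusted p = 0.0213). Its call ended beside the macrophage score, where 213 of all genes were called in place of 1477. Of the e subunits, Atp6v0e2 held 67.0, 67.2 and 71.5% in CTRL, 61.1, 61.2 and 55.6% at 1 DPA, 65.3, 66.5 and 65.1% at 3 DPA, and 71.1, 68.1 and 66.1% at 5 DPA, with 1 and 3 DPA wholly below CTRL (exact p = 0.1 for each). Atp6v1b2 made up 99.96% or more of the B subunit and Atp6v0d1 99.1% or more of the d subunit in every library, and Atp6v1c2 rose to at most 1.86% of the C subunit.

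**Figure D5:**
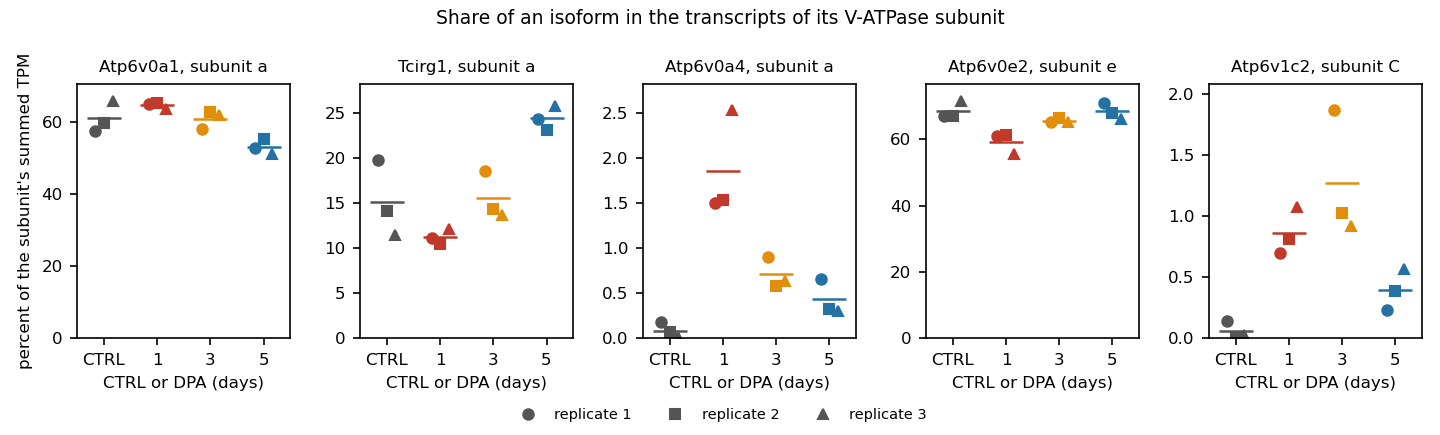
Share of 5 isoforms in the summed TPM of their V-ATPase subunit, in percent on the vertical axis, for each library by group from CTRL to 5 DPA, with symbols for the replicate numbers and a line at the mean of each group. The share of Tcirg1 is highest and that of Atp6v0a1 lowest at 5 DPA, and the share of Atp6v0e2 is lowest at 1 DPA.

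Other genes of the pathway were read from 7 lists of 154 symbols. Among all genes tested, 29.2% were higher and 22.4% lower at 1 DPA. At 3 DPA 10.2% were higher and 2.37% lower. The 5 DPA shares were 5.87% higher and 2.67% lower. Of 35 other lysosomal hydrolases and activators, 23 fell and 3 rose at 1 DPA (65.7% and 8.57%), and 6 rose at 5 DPA (17.1%). The acid lipase Lipa fell by 1.18 ± 0.23 and rose by 0.96 ± 0.22 at the 2 times, beta-galactosidase Glb1 fell by 0.91 ± 0.08 at 1 DPA, and Man2b1, a mannosidase, fell by 0.67 ± 0.10 at 1 DPA and rose by 0.81 ± 0.10 at 5 DPA. At 3 DPA 2 were higher, alpha-galactosidase Gla (0.72 ± 0.11) and Hexa (0.61 ± 0.10), and 0 were lower. Of 33 other lysosomal membrane proteins, 17 fell and 5 rose at 1 DPA (51.5% and 15.2%), among them the chloride-proton exchanger Clcn7, which rose by 1.31 ± 0.17, and the sterol carrier Npc2, which works in the lumen and fell by 0.81 ± 0.13. At 3 and 5 DPA 1 was higher and 1 lower each time. Beside the macrophage score, 1 hydrolase and 0 membrane proteins were called at 5 DPA, with 213 of all genes in place of 1477.

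Of 14 tested V-ATPase assembly factors and regulators, 4 rose and 4 fell at 1 DPA (28.6% each), shares near those of all genes (29.2% and 22.4%), with the assembly factor Tmem199 up by 0.53 ± 0.07 and the small GTPase Rab7 up by 0.28 ± 0.07. At 3 DPA Rab7 was up by 0.65 ± 0.07. Of 20 genes of the TFEB family and of the Ragulator and Rag proteins that control it, 11 rose and 4 fell at 1 DPA (55% and 20%, against 29.2% and 22.4% of all genes). Tfe3 rose by 1.24 ± 0.07 (edgeR adjusted p = 1.84e-07), as did its regulators Fnip1 (1.03 ± 0.11) and Flcn (0.80 ± 0.09), whereas Mitf fell by 0.53 ± 0.17 and Tfeb itself gave no call (-0.09 ± 0.12). At 3 DPA 6 of the 20 were higher and 1 lower, and at 5 DPA 0 and 2. Beside the macrophage score, 9 of the 20 were called at 1 DPA, with 6803 of all genes in place of 8916.

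Of 16 genes for sorting to lysosomes, 5 rose and 6 fell at 1 DPA (31.2% and 37.5%, against 29.2% and 22.4% of all genes), and the mannose 6-phosphate receptor M6pr fell by 0.56 ± 0.07. Sort1 (sortilin) fell by 0.65 ± 0.07. Of 9 tested cathepsin inhibitors, 6 fell and 0 rose at 1 DPA (66.7% and 0%), including cystatin C (Cst3, -0.61 ± 0.08). Serpina3n rose at 3 DPA (0.83 ± 0.24) and at 5 DPA (1.22 ± 0.24). Beside the macrophage score, 2 of the 9 inhibitors were called at 1 DPA, with 6803 of all genes in place of 8916. Of 21 autophagy genes, 11 rose and 3 fell at 1 DPA (52.4% and 14.3%) and 9 rose and 1 fell at 3 DPA (42.9% and 4.76%). Atg14 was up by 1.11 ± 0.14 and 0.90 ± 0.14 and the receptor Sqstm1 (p62) up by 0.39 ± 0.08 and 0.41 ± 0.08. At 5 DPA 1 of the 21, Atg12, remained higher (0.36 ± 0.09).

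The scale bears on the small differences at 1 DPA. In the deposited TPM the median gene was higher at 1 DPA than in CTRL by 0.19 on the log2 scale, and Atp6v1f averaged 132 TPM at 1 DPA and 133 TPM in CTRL although its CPM was called lower. Lamp1 (434 ± 55.2 and 448 ± 32.1 TPM), Atp6v1e1 (57.2 ± 6.74 and 60.8 ± 3.88) and Ctso (19.2 ± 2.57 and 21.3 ± 4.64) also differed by less than 1 SD. Lamp2 (37.1 ± 4.69 and 44.1 ± 2.40) and Ctsb (103 ± 11.3 and 170.2 ± 45.6) differed by more, as did Ctsa, Ctsl and Ctsz. Cathepsins with a wide spread in CTRL differed by less than the CTRL SD. They were Ctsd (272 ± 46.0 and 366 ± 99.1), Ctss (32.1 ± 9.20 and 79.7 ± 52.6), Ctsh (4.89 ± 0.938 and 13.8 ± 9.91) and Ctsc (3.36 ± 0.458 and 8.18 ± 5.03). Atp6v1a (47.1 and 43.7 TPM) and Atp6v1b2 (125 and 114 TPM) averaged higher at 1 DPA than in CTRL. With library sizes taken without the 50 most abundant genes, the median gene was at -0.17.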

How the data were processed

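The authors deposited 1 table of total read counts per gene and, beside them, TPM values for the 12 libraries, per the file headers. RNA was extracted with an RNeasy Mini kit and made into libraries with a QIAseq stranded mRNA kit, per the labels' protocols, and the submitters' processing notes name the build mm10. No source used here gives the aligner or whether counting used strand. A further 24 columns of the table were not used.

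Counts of all 12 libraries were fitted with 1 mean per group in edgeR 4.0.16 (R 4.3.3; filterByExpr, TMM scaling, robust quasi-likelihood test), with Benjamini-Hochberg adjustment over 17294 genes and a threshold of 0.05. The step was tested on simulated data. CPM are counts scaled to the same effective library size, and the 3 comparisons with CTRL share the CTRL libraries. TPM served for levels between genes and shares of isoforms (scipy 1.17.1). Isoform shares were compared by exact permutation, and intervals of low counts are exact at 95%. Gene positions come from GENCODE M21 (mm10). Alternatives were DESeq2 1.42.0, limma-voom (limma 3.58.1), other scalings and filters, covariates, the replicate block and each library left out. The members and lists were chosen with earlier results of these data known. Genes shown with every library's value were 19 members chosen for their role and, for each time against CTRL, the 5 largest called rises and falls at an average log2 CPM of 1 or more, with others where a sentence is about their role. Replicate numbers were checked for pairing: same-numbered libraries of 3 and 5 DPA deviated together (correlations 0.156 to 0.326), and in no other pair of groups did all numbers do so. Libraries of different numbers were not compared, so these correlations do not establish a pairing, and the labels give none. With the block none of the 8 calls between these times was lost.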

Additional observations from a re-analysis of the deposited data

Results flagged for a closer look

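Between 5 and 1 DPA, Ctsa differed by 1.04 on the log2 scale, Ctsb by 1.81 and Ctsd by 1.69. These 3 cathepsins are singled out because their differences from the same CTRL libraries were called in opposite directions, lower at 1 DPA and higher at 5 DPA. That choice already sets 5 DPA above 1 DPA, so the sizes are a description and no further evidence. From the same values, every 5 DPA library was above every 1 DPA library for each of them.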

How the results depend on the processing

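Of the 25 calls at 1 DPA, 19 held without 1 DPA replicate 2, 20 without CTRL replicate 1 or 1 DPA replicate 1, 17 beside the macrophage score and 21 in limma-voom or with only the groups compared. Of the 8 at 3 DPA, 6 or more held in every setting run. Beside the macrophage score, falls at 1 DPA numbered 9 in place of 16, rises at 5 DPA 1 in place of 5, rises and falls between 5 and 3 DPA 1 and 3 in place of 3 and 5, rises from 1 to 3 DPA 7 in place of 19, and rises and falls between 5 and 1 DPA 7 and 5 in place of 18 and 10. There Ctsc (0.075), Ctsh (0.18) and Ctss (0.25) changed sign at 1 DPA. Over all genes, calls beside that score numbered 6803 in place of 8916 at 1 DPA and 213 in place of 1477 at 5 DPA. They numbered 217 in place of 547 between 5 and 3 DPA and 4589 in place of 7805 between 3 and 1 DPA. Between 5 and 1 DPA they numbered 3138 in place of 9703. Rises at 5 DPA numbered 0 when only the groups compared were fitted and 3 beside the acinar score, and DESeq2 gave 1 fall there. Over all genes, rises at 5 DPA numbered 418 with only the groups compared and 711 beside the acinar score, in place of 1016. Without the 50 most abundant genes in the library sizes, falls numbered 1 in place of 2 between 3 and 1 DPA and 6 in place of 10 between 5 and 1 DPA, and with no filter on low counts the falls between 3 and 1 DPA numbered 1. The causes were not tested.

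Calls in the other lists, in either direction, moved as follows. Beside the macrophage score they numbered 9 in place of 15 (TFEB family) and 2 in place of 6 (inhibitors) at 1 DPA, 2 in place of 1 (inhibitors) at 3 DPA, and at 5 DPA 1 in place of 6 hydrolases and 0 for membrane proteins, assembly factors, the TFEB family, sorting and autophagy. With only the groups compared they numbered 3 inhibitors at 1 DPA, 1 membrane protein, 2 assembly factors, 1 sorting gene and 0 inhibitors at 3 DPA, and 2 hydrolases, 0 of the TFEB family, 2 sorting genes and 0 inhibitors at 5 DPA. Beside the acinar score they numbered 1 membrane protein, 2 assembly factors, 4 of the TFEB family, 0 sorting genes, 0 inhibitors and 5 autophagy genes at 3 DPA, and 1 membrane protein and 0 autophagy genes at 5 DPA. DESeq2 called 6 hydrolases and 4 membrane proteins at 3 DPA, and 11 hydrolases, 4 membrane proteins, 2 inhibitors and 2 autophagy genes at 5 DPA. RLE scaling gave 5 hydrolases and 0 inhibitors at 3 DPA and 1 of the TFEB family at 5 DPA. Without the 50 most abundant genes there were 4 hydrolases and 0 inhibitors at 3 DPA, and 1 of the TFEB family and 2 autophagy genes at 5 DPA. With no filter there were 0 inhibitors at 3 DPA, and 1 membrane protein and 0 of the TFEB family at 5 DPA. The replicate block gave 3 inhibitors at 1 DPA, and 1 membrane protein, 2 inhibitors and 2 autophagy genes at 5 DPA, and limma-voom gave 3 inhibitors at 1 DPA and 2 autophagy genes at 5 DPA. Among the members the replicate block ended the calls of Atp6v0e and Ctss at 1 DPA and of Atp6v1c2 at 5 DPA.

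With each library left out in turn, members higher at 5 DPA numbered 1 to 7 and lower 0 to 1, those between 3 and 1 DPA 11 to 20 and 1 to 3, and those between 5 and 3 DPA 0 to 4 and 0 to 5. Calls over all genes then numbered 462 to 2137 at 5 DPA. They numbered 6173 to 8634 between 3 and 1 DPA and 31 to 1018 between 5 and 3 DPA. In the lists, the ranges at 3 and 5 DPA were 2 to 7 and 2 to 7 hydrolases, 2 to 4 and 1 to 6 membrane proteins, 2 to 4 and 0 to 3 assembly factors, 3 to 7 and 0 to 2 of the TFEB family, 1 to 4 and 0 to 2 sorting genes, 0 to 1 and 0 to 2 inhibitors, and 6 to 10 and 0 to 2 autophagy genes, with 3 to 7 inhibitors at 1 DPA. Depth limits the 4 genes of very low count, whose ratios rest on as few as 2 counts in a group.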
